A study of Sus scrofa with 6 samples.

Results

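DCTN2, CCNT1 and JAG1 are protein-coding genes whose main transcript differed between longissimus thoracis (LT) and semitendinosus (ST) muscle of Min pigs, a Chinese indigenous breed. All transcripts listed under these 3 gene symbols were taken, which gave 12 of the 58079 mRNA transcripts in the data, 6 of DCTN2, 2 of CCNT1 and 4 of JAG1. The genes were chosen from the LT and ST values themselves, so these values are given here as a description, with no test.

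LT and ST muscles came from 3 grown pigs of one age, labelled WT, and gave 3 libraries per muscle, made with a directional kit from total RNA after removal of rRNA. LT and ST libraries with the same number were taken as the same pig, since both muscles were sampled from the same 3 animals. The level of each transcript was deposited as FPKM, that is, a count of fragments corrected for transcript length and library size. The number of fragments behind a value was not given with it, and no counting interval was computed. Between 47718 and 50017 of 72511 listed transcripts had an FPKM above 0 in a library.

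The 3 genes act in separate processes. DCTN2 encodes dynamitin, a subunit of dynactin, the complex that links the motor dynein to its cargo on microtubules and, in muscle fibres, takes part in the placing of nuclei and organelles. CCNT1 encodes cyclin T1, which with the kinase CDK9 forms P-TEFb, the factor that releases paused RNA polymerase II, and which is held inactive in the 7SK complex by HEXIM proteins. JAG1 encodes Jagged1, a membrane ligand that activates Notch receptors on neighbouring cells and is known from vessel walls and from muscle stem cells.

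In each gene, no transcript that was the highest in any LT library was the highest in any ST library. The pattern was complete in CCNT1, where 1 transcript was the highest in all LT libraries and another in all ST libraries. In DCTN2 the highest transcript was the same in all LT libraries but not in all ST libraries, and in JAG1 it was the same in all ST libraries but not in all LT libraries. Thus "isoform switch" held for CCNT1 in the strict sense, and for DCTN2 and JAG1 only as a lack of any shared highest transcript. Of 7120 genes with several mRNA transcripts and a summed FPKM above 1 in all libraries, 38 (0.534%) met the strict definition and 112 (1.57%) the wider one. Since the genes were chosen by this contrast, nothing is read from their place among these.

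**Figure D1:**
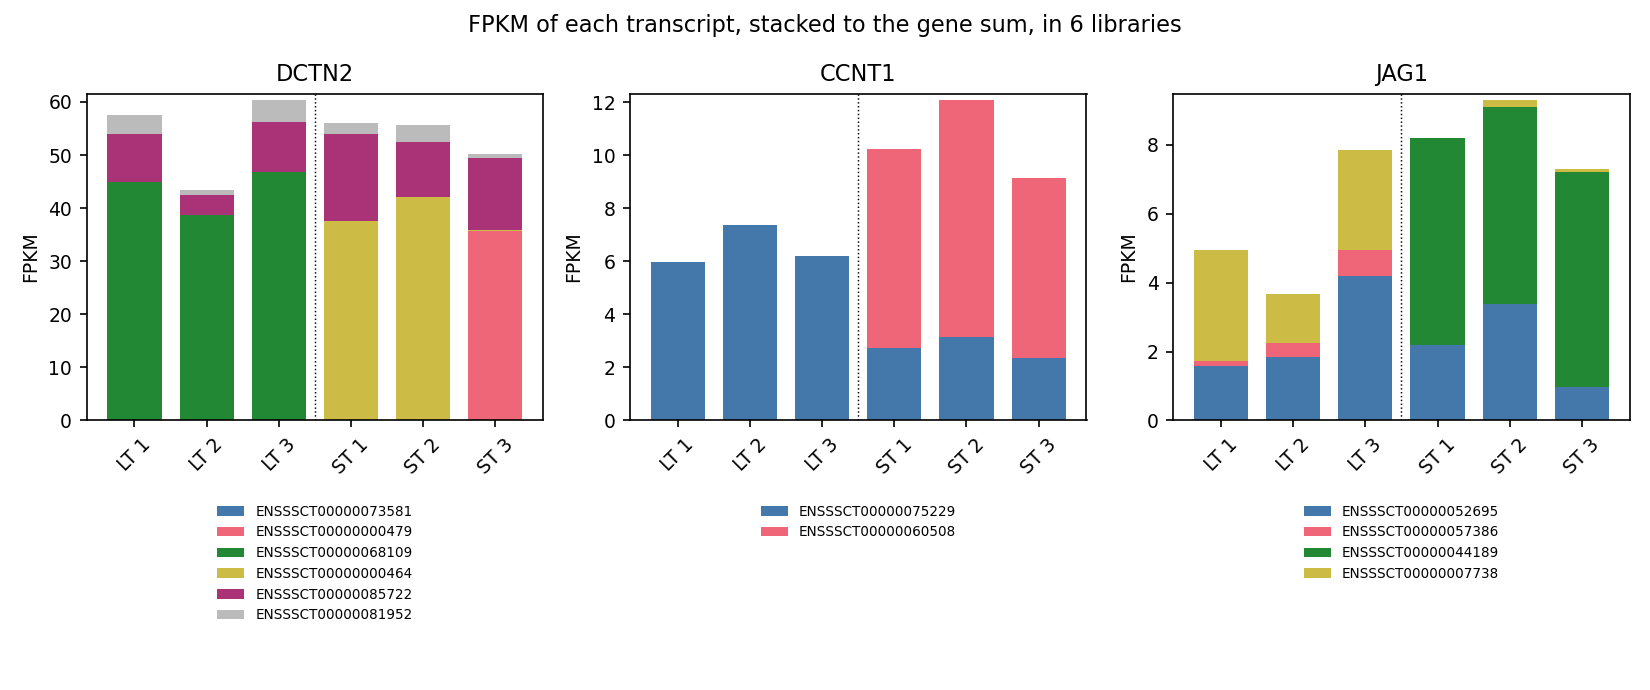
Stacked bars give the FPKM of each transcript (y axis, linear, from 0) in libraries 1 to 3 of LT and ST (x axis) for DCTN2, CCNT1 and JAG1, so that the height of a bar is the gene sum. The colours of the tallest segments differ between LT and ST in each gene, while the DCTN2 bars of LT (43.4 to 60.4) and ST (50.2 to 56.1) overlap in height.

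DCTN2 (ENSSSCG00000000444) lies on the minus strand of chromosome 5, at 22799286 to 22814364 of Sscrofa11.1. Its highest transcript in LT was ENSSSCT00000068109, with 16 exons and 1779 bases. Its FPKM was 44.9, 38.7 and 46.8 in LT libraries 1 to 3, against 0.00308, 0.00193 and 0.0342 in ST libraries 1 to 3. Every LT library was thus far above every ST library, and the means were 43.5 ± 4.24 (SD, n = 3) in LT against 0.0131 ± 0.0183 (SD, n = 3) in ST. The difference was -8.60 on the scale of log2(FPKM + 0.1), ST against LT, a value that depends on the constant added because the ST levels lie below it. This transcript made up 81.6% ± 6.62 (SD, n = 3) of the DCTN2 sum in LT against 0.0257% in ST.

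In ST, the place of the highest DCTN2 transcript was shared by a pair of transcripts, depending on the library. ENSSSCT00000000464, with 15 exons and 1397 bases, had an FPKM of 37.6 in ST library 1, 42.1 in ST library 2 and 0.0183 in ST library 3, and was listed at 0 in all LT libraries. ENSSSCT00000000479, with 15 exons and 1770 bases, had 0.00173, 0.000667 and 35.7 in ST libraries 1 to 3 and at most 0.00113 in LT. ST library 3 therefore stood apart from the other two ST libraries in which transcript it carried, but not in how much. The highest transcript had an FPKM of 35.7 to 46.8 in every library of both muscles. It made up 67.0%, 75.8% and 71.1% of the DCTN2 sum in ST libraries 1 to 3.

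The 3 transcripts have the same 5′ end and differ in little of what the files record. ENSSSCT00000000464 stops 154 bases before the 3′ end of ENSSSCT00000068109 and is 382 bases shorter when spliced. ENSSSCT00000000479 has the same start and end as ENSSSCT00000068109, with 1 exon fewer. A further transcript, ENSSSCT00000081952, has the same start, end, exon number and spliced length as ENSSSCT00000000479. Its FPKM was 3.53, 0.967 and 4.22 in LT against 2.08, 3.14 and 0.810 in ST, and the muscles overlapped. How the fragments of shared exons were divided between such transcripts was estimated in the authors' assembly, and its part in the pattern was not tested.

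ENSSSCT00000085722, with 16 exons and a 5′ end 91 bases inside that of ENSSSCT00000068109, was the DCTN2 transcript present at an FPKM above 3 in all libraries. It had 9.16, 3.71 and 9.34 in LT against 16.4, 10.3 and 13.6 in ST. The muscles did not overlap, with means of 7.40 ± 3.20 (SD, n = 3) in LT against 13.5 ± 3.08 (SD, n = 3) in ST. The remaining transcript, ENSSSCT00000073581, was listed at 0 in all 6 libraries and was the only 1 of the 12 that did not pass an FPKM of 0.1 in any library.

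Summed over its transcripts, DCTN2 differed less between the muscles than between libraries of one muscle. The sum was 57.6, 43.4 and 60.4 in LT against 56.1, 55.6 and 50.2 in ST. The means were 53.8 ± 9.11 (SD, n = 3) in LT against 54.0 ± 3.24 (SD, n = 3) in ST, and the log2 difference of 0.02 took the opposite sign when LT library 2 (-0.13), ST library 1 (-0.01) or ST library 2 (-0.0042) was left out. FPKM times the spliced length in kilobases, which is proportional to the fragments of a transcript, gave a log2 difference of -0.14 for the sum, again with overlap. Without ENSSSCT00000068109 the sum was 10.3 ± 4.90 (SD, n = 3) in LT against 54.0 ± 3.26 (SD, n = 3) in ST.

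**Figure D2:**
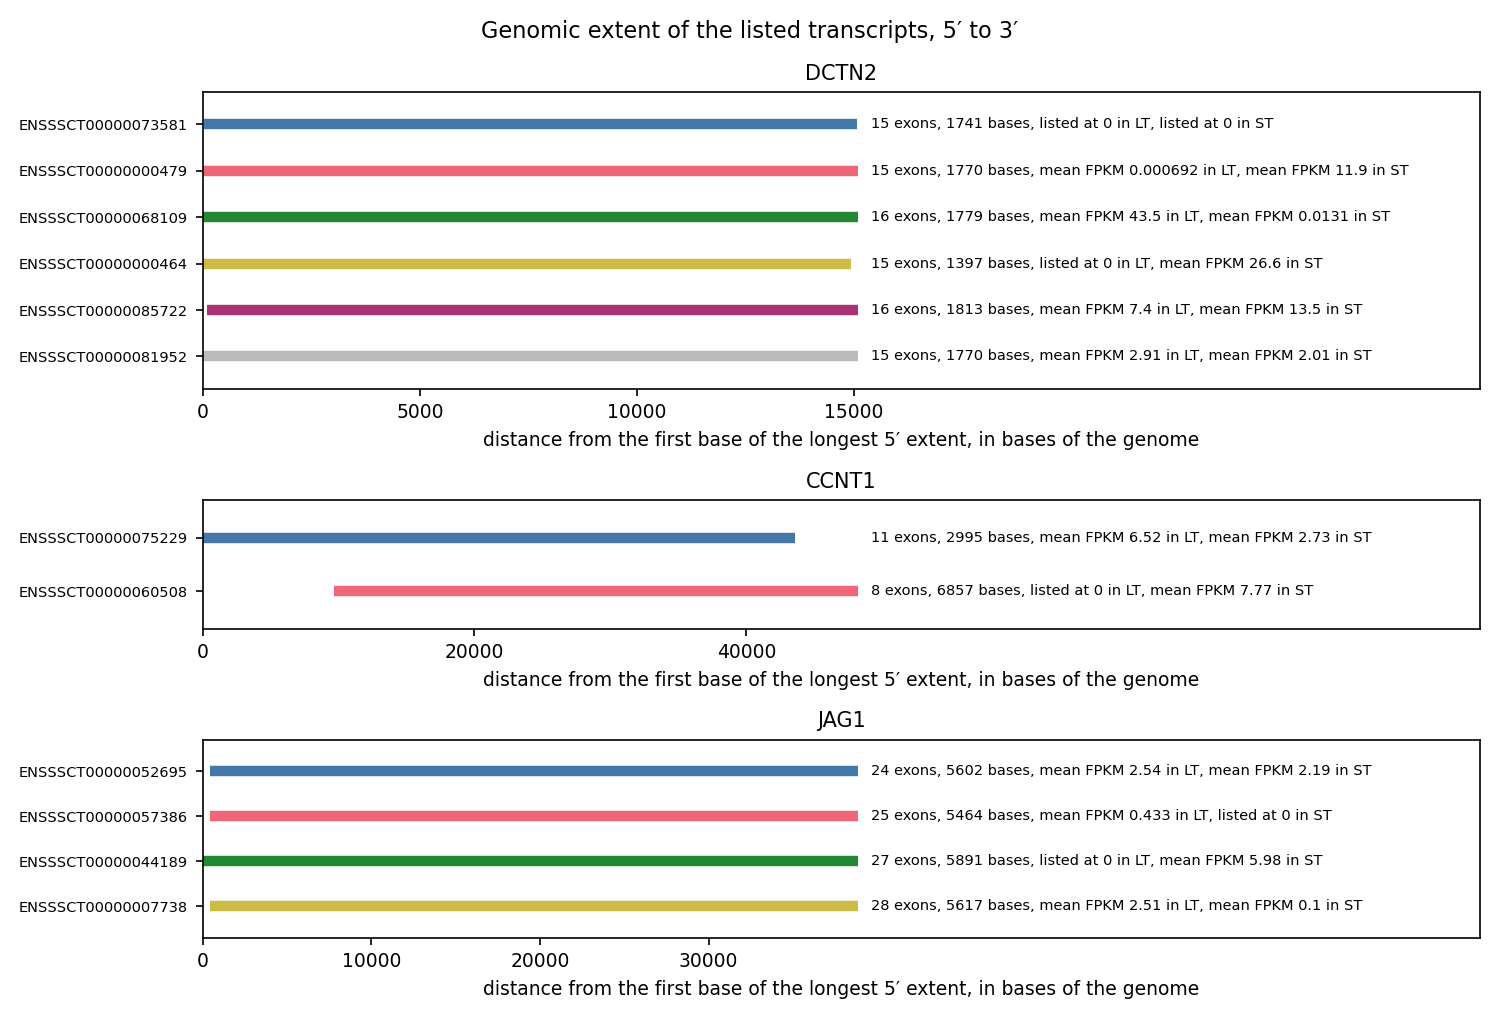
Horizontal bars show the genomic extent of each listed transcript of DCTN2, CCNT1 and JAG1 in the direction of transcription (x axis, distance in bases from the outermost 5′ base), with exon number, spliced length and mean FPKM beside each bar. The DCTN2 bars share nearly the same extent, the CCNT1 bars differ at both ends, and ENSSSCT00000044189 of JAG1 starts 444 bases further 5′ than the other JAG1 transcripts.

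CCNT1 (ENSSSCG00000038181) lies on the same chromosome and strand, at 14768429 to 14816613. Its longer transcript, ENSSSCT00000060508, with 8 exons and 6857 bases, was listed at 0 throughout LT and had an FPKM of 7.53, 8.96 and 6.82 in ST libraries 1 to 3. The ST mean was 7.77 ± 1.09 (SD, n = 3). ENSSSCT00000075229, with 11 exons and 2995 bases, had an FPKM of 5.99, 7.37 and 6.19 in LT against 2.72, 3.14 and 2.34 in ST. It was the whole of the CCNT1 sum in LT, and its lowest LT value was above its highest ST value. Its means were 6.52 ± 0.746 (SD, n = 3) in LT against 2.73 ± 0.399 (SD, n = 3) in ST, a log2 difference of -1.23.

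The LT transcript of CCNT1 was thus not absent from ST. ENSSSCT00000060508 made up 73.5%, 74.0% and 74.5% of the CCNT1 sum in ST libraries 1 to 3, and its FPKM was 2.77, 2.85 and 2.91 times that of ENSSSCT00000075229. The SD of its share over the ST libraries was 0.477 percentage points, against 11.9 for the main ST transcript of JAG1. By FPKM times length, its share was 86.7% ± 0.286 (SD, n = 3).

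The 2 CCNT1 transcripts differ at both ends. ENSSSCT00000060508 starts 9638 bases downstream of the start of ENSSSCT00000075229, extends 4603 bases further at the 3′ end and is 3862 bases longer when spliced. In the RefSeq annotation of the same assembly, CCNT1 spans 14768423 to 14808424 with 1 transcript, so that the start of ENSSSCT00000075229 lies 8189 bases outside the RefSeq gene. The same measure was 6 bases for DCTN2 and 426 bases for JAG1, with 3 and 2 RefSeq transcripts.

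The CCNT1 sum was higher in ST in these libraries. It was 5.99, 7.37 and 6.19 in LT against 10.2, 12.1 and 9.16 in ST, with no overlap, and the ratio of the means was 1.61. By FPKM times length the ratio was 3.15, with 19.5 ± 2.23 (SD, n = 3) in LT against 61.5 ± 8.63 (SD, n = 3) in ST. The size of the difference between the muscles therefore depended on whether the longer transcript was weighted by its length.

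JAG1 (ENSSSCG00000007067) lies on the minus strand of chromosome 17, at 19591252 to 19630085. ENSSSCT00000044189, with 27 exons and 5891 bases, was listed at 0 throughout LT and reached an FPKM of 6.01, 5.71 and 6.24 in ST. Its ST mean was 5.98 ± 0.261 (SD, n = 3), and it made up 73.2%, 61.4% and 85.3% of the JAG1 sum in ST libraries 1 to 3. Its level varied little between the ST libraries, while its share varied with the other JAG1 transcripts.

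In LT the JAG1 sum was spread over the other 3 transcripts, which end at the same 3′ base and begin at the same 5′ base. ENSSSCT00000007738, with 28 exons and 5617 bases, had an FPKM of 3.22, 1.41 and 2.91 in LT against 0, 0.208 and 0.0932 in ST. It was higher in every LT library than in any ST library, where its values lay at or near 0, and was the highest JAG1 transcript in LT library 1 alone. ENSSSCT00000052695, with 24 exons and 5602 bases, had 1.57, 1.85 and 4.20 in LT against 2.20, 3.38 and 0.981 in ST, and the muscles overlapped. It was the highest in LT libraries 2 and 3. ENSSSCT00000057386, with 25 exons, had 0.159, 0.405 and 0.736 in LT, while ST listed it at 0.

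The JAG1 sum overlapped between the muscles. It was 4.95, 3.67 and 7.85 in LT against 8.21, 9.30 and 7.31 in ST. The means were 5.49 ± 2.14 (SD, n = 3) in LT against 8.27 ± 0.999 (SD, n = 3) in ST, and ST was higher in libraries 1 and 2 but not in library 3. The log2 difference was 0.65, and was 0.40 without LT library 2 and 0.93 without LT library 3. The sum of the transcripts other than ENSSSCT00000044189 was higher in LT, at 5.49 ± 2.14 (SD, n = 3) against 2.29 ± 1.26 (SD, n = 3) in ST.

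**Figure D3:**
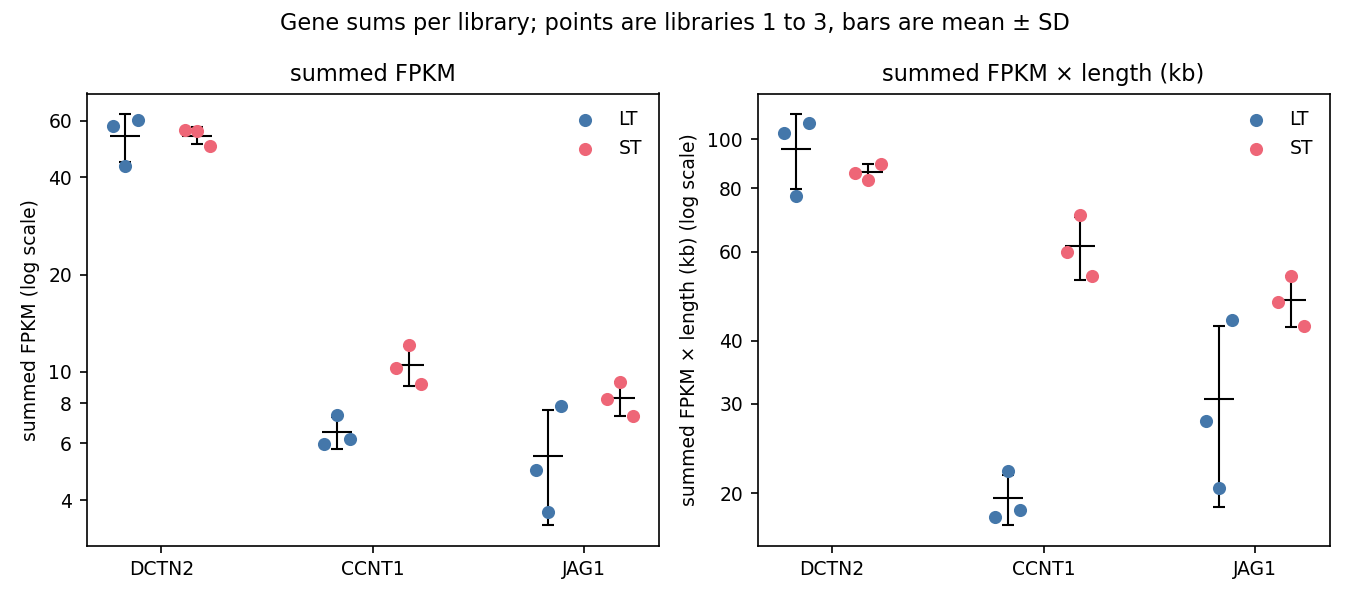
Points give the gene sum in each library for DCTN2, CCNT1 and JAG1, as summed FPKM (left, log axis) and as summed FPKM times length in kilobases (right, log axis), with bars for the mean and SD of 3 libraries. LT and ST points are apart in both panels for CCNT1, with ratios of means of 1.61 and 3.15, and overlap for DCTN2 and JAG1.

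Transcripts that were listed at 0 in all libraries of one muscle and above an FPKM of 1 in all of the other were few. They numbered 27 of 38467 mRNA transcripts tested (0.0702%), 15 of them higher in ST, and came from 24 genes, all of which had several transcripts. Both ENSSSCT00000060508 (CCNT1) and ENSSSCT00000044189 (JAG1) belonged here, while ENSSSCT00000068109 of DCTN2 was not, since it had small values in ST. In 14 of the 24 genes the gene sum differed by less than 1 on the log2 scale. The median absolute log2 difference of the sum was 0.69, against 0.33 for all genes. In 10 the sums of LT and ST overlapped and in the rest they did not, against 24.7% of all genes without overlap. The 24 genes include CCNT1 and JAG1, and the transcript that chose a gene is part of its sum. Nothing is therefore read from these values.

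The transcripts whose log2 levels were most like those of the 3 main transcripts were found over the 6 libraries, which fall into 3 of each muscle, so that any transcript with a large and even difference between the muscles comes close. For ENSSSCT00000068109 of DCTN2 they were transcripts of ASPH (Pearson r = 0.99893), MYH14 (r = 0.9986) and RPS27L (r = 0.9977). MYH14, a non-muscle myosin heavy chain, had an FPKM of 3.64, 3.29 and 4.78 in LT for its transcript ENSSSCT00000031995, which ST listed at 0. For ENSSSCT00000060508 of CCNT1 they were transcripts of SPNS2, a transporter of sphingosine-1-phosphate, UQCRC1, a core subunit of respiratory complex III, and CADPS2, each with r = 0.9992. ENSSSCT00000012433 of UQCRC1 was present in both muscles, with means of 147.2 ± 1.17 (SD, n = 3) in LT against 279.0 ± 4.52 (SD, n = 3) in ST. For ENSSSCT00000044189 of JAG1 they were transcripts of KDM4B, a histone demethylase (r = 0.99987), SPNS2 (r = 0.9996) and GAL3ST1, a sulfotransferase (r = 0.9993). Of 14145 to 14148 transcripts compared, 18 had r above 0.99 with the DCTN2 transcript, 26 with that of CCNT1 and 27 with that of JAG1.

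The same values were compared between the muscles with limma across all features, on log2(FPKM + 0.1). A call needed an adjusted p below 0.05 with a log2 difference beyond 1 in either direction. By this rule, 74 of 38467 mRNA transcripts (0.192%), 2 of 13635 lncRNAs (0.0147%) and 113 of 19672 genes by summed FPKM (0.574%) were called. With the pig as a block these were 2 mRNA transcripts and 799 genes. Unless the block is named, p-values are those of the unblocked fit, which treats the libraries as independent. They rest on the spread between the libraries of one muscle, from these 3 pigs, and do not use the pairing.

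Other subunits of dynactin and the chains and adaptors of dynein were examined as partners of DCTN2. None of the 34 genes tested of 37 listed was called by limma. For 8 the unadjusted p was under 0.05, against 18.8% of all genes. Of these, 7 were higher in ST, against 13.0% of all genes for that direction. The values of 8 genes did not overlap between the muscles, against 24.7% of all genes. The median log2 difference was 0.22, against 0.13 for all genes. DCTN1, the largest dynactin subunit, had an FPKM of 12.9 ± 0.850 (SD, n = 3) in LT against 15.2 ± 0.979 (SD, n = 3) in ST. Of the dynein chains, 1 of 10 had an unadjusted p under 0.05, and of the regulators and adaptors 5 of 13, all higher in ST, against 13.0% of all genes for that direction.

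The smallest p-values of this list belonged to CAPZA2, a subunit of the capping protein that ends the dynactin filament, and to adaptors. CAPZA2 had an FPKM of 47.5 ± 3.85 (SD, n = 3) in LT against 27.9 ± 3.67 (SD, n = 3) in ST (log2 difference -0.77, SE 0.18, limma adjusted p = 0.0807). With the pig as a block its limma adjusted p was 0.0446, but the log2 difference was not beyond 1. CAPZA1, also listed as a dynactin subunit, went the other way (log2 difference 0.41, limma adjusted p = 0.220). Its FPKM was 13.6 ± 1.01 (SD, n = 3) in LT against 18.0 ± 1.07 (SD, n = 3) in ST, with no overlap. TRAK1, which links mitochondria to motor proteins, had 6.89 ± 2.14 (SD, n = 3) in LT against 14.8 ± 3.25 (SD, n = 3) in ST (1.12, SE 0.27, limma adjusted p = 0.0903), and was called with the pig as a block (limma adjusted p = 0.0276). Its relative TRAK2 had log2 0.65, the adaptor HOOK2 0.98 and the centrosomal adaptor NIN 0.68, with limma adjusted p from 0.101 to 0.155. Without ST library 2, 2 of the 34 genes were called, HOOK2 among them, a share near the 5.08% of all genes called in that fit. The 1 gene called with the block, TRAK1, likewise stood beside 4.06% of all genes.

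Of the genes that act with CCNT1 in transcription elongation, 27 were listed and 25 tested. None was called by limma. For 2 the unadjusted p was under 0.05, a share below the 18.8% of all genes, and 4 did not overlap, 2 in each direction, also a share below the 24.7% of all genes. The median log2 difference was 0.08, against 0.13 for all genes. CDK9, the kinase partner of cyclin T1, had an FPKM of 11.8 in LT against 11.9 in ST (log2 difference 0.04), and CCNT2, the other cyclin of P-TEFb, 8.51 and 7.50 (-0.22). Both overlapped between the muscles.

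HEXIM2, an inhibitor of P-TEFb, had the smallest p of this list. Its FPKM was 9.17, 10.5 and 7.90 in LT against 3.85, 5.05 and 5.14 in ST. All LT values lay above all ST values, and the log2 difference was -0.96 (SE 0.20, limma adjusted p = 0.0710). With the pig as a block the limma adjusted p was 0.0382, but the log2 difference was not beyond 1. AFF4, the scaffold of the super elongation complex, had 14.1 ± 2.22 (SD, n = 3) in LT against 22.0 ± 4.70 (SD, n = 3) in ST (0.63, limma adjusted p = 0.167). The kinase CDK12, the elongation factor ELL2 and the ELL-associated factor EAF2 had log2 differences of 0.32, 1.01 and -0.58, with limma adjusted p from 0.357 to 0.384. ELL2 rested on ST library 2 (29.8, against 6.99 and 5.33 in the other two) and had 0.25 without it. CDK12 had 0.13 after quantile normalization, and EAF2 ranged from -1.29 with pseudocount 0.01 to -0.09 with pseudocount 1. Without ST library 2, 1 of the 25 genes, HEXIM2, was called, where 5.08% of all genes were.

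Of the genes of the Notch pathway other than JAG1, 38 were listed and 33 tested, and none was called by limma. Before adjustment, p was below 0.05 for 13 genes, against 18.8% of all genes. Of these, 10 were higher in ST, against 13.0% of all genes for that direction. The values of 15 genes did not overlap between the muscles, against 24.7% of all genes. Of these, 11 were higher in ST, against 16.6% of all genes for that direction. The median log2 difference was 0.38, against 0.13 for all genes. With the pig as a block 2 of the 33 genes were called (HEY1 and NOTCH4), against 4.06% of all genes in that fit, and without ST library 2 it was 5, against 5.08% of all genes.

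**Figure D4:**
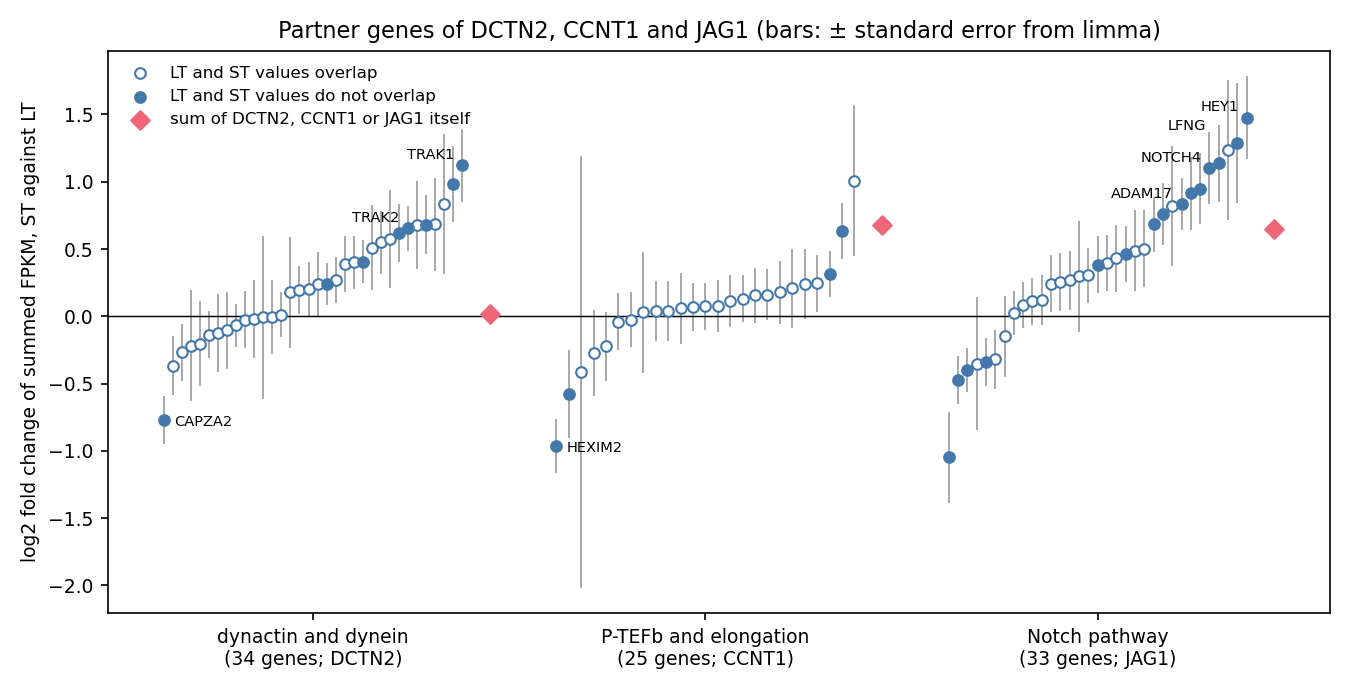
Each circle is a partner gene, ordered by its log2 difference of summed FPKM (y axis, ST against LT, ± standard error from limma), in the dynactin and dynein, the elongation and the Notch list (x axis), filled where the LT and ST values do not overlap, with diamonds for DCTN2, CCNT1 and JAG1 themselves. No circle passes the adjusted test, and 11 of 15 filled Notch circles lie above 0, against 3275 of the 4865 non-overlapping genes overall.

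The ligands other than JAG1 gave no unadjusted p under 0.05 among 3 tested. Among them was DLL4, a ligand of endothelial cells, with an FPKM of 3.45 ± 1.69 (SD, n = 3) in LT against 6.25 ± 2.81 (SD, n = 3) in ST and overlapping values. Of 3 receptors tested, NOTCH4, which is known from endothelium, had 1.85, 1.47 and 2.61 in LT against 4.29, 3.35 and 5.33 in ST. These did not overlap (log2 difference 1.10, SE 0.27, limma adjusted p = 0.0927, and 0.0283 with the pig as a block). NOTCH2, the receptor with the highest mean, had a log2 difference of 0.12, with overlap.

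Of the genes that cut, glycosylate or turn over ligands and receptors, 3 of 17 had an unadjusted p under 0.05 with higher values in ST and 3 with higher values in LT, against 13.0% and 5.75% of all genes. ADAM17, a protease that sheds membrane proteins, had 3.47 ± 0.621 (SD, n = 3) in LT against 6.19 ± 0.142 (SD, n = 3) in ST (log2 difference 0.84, limma adjusted p = 0.0821). With the pig as a block its limma adjusted p was 0.0461, but the log2 difference was not beyond 1. LFNG, a glycosyltransferase that alters how Notch responds to its ligands, had 4.18 ± 1.19 (SD, n = 3) in LT against 9.31 ± 2.76 (SD, n = 3) in ST (1.14, limma adjusted p = 0.0987). Of its relatives, MFNG had a log2 difference of 0.91 (limma adjusted p = 0.132) and RFNG one of -0.47 (limma adjusted p = 0.204). RFNG was 1 of the 3 genes higher in LT before adjustment. The others were APH1B (-1.05, limma adjusted p = 0.158) and PSENEN (-0.40, limma adjusted p = 0.244).

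Of the nuclear factors and target genes of Notch, 6 of 10 had an unadjusted p under 0.05, all higher in ST, against 13.0% of all genes for that direction. The median log2 difference was 0.72, against 0.13 for all genes. HEY1, a transcription repressor induced by Notch, had an FPKM of 2.13, 1.81 and 1.63 in LT against 8.24, 3.50 and 5.18 in ST. No LT value reached an ST value, and the log2 difference was 1.48 (SE 0.31, limma adjusted p = 0.0717, and 0.0289 with the pig as a block). HES6 had 1.45 ± 0.103 (SD, n = 3) in LT against 2.99 ± 0.896 (SD, n = 3) in ST (0.95, limma adjusted p = 0.119). RBPJ, the DNA-binding partner of cut Notch, had a log2 difference of 0.76.

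Markers of vessel cells were also compared between the muscles. Of 8 endothelial markers 6 were found, none was at 0, all 6 had higher means in ST, 5 with an unadjusted p under 0.05 (18.8% of all genes), and limma called PECAM1 and CDH5 (0.574% of all genes were called). PECAM1, the most abundant, had an FPKM of 31.6 ± 7.95 (SD, n = 3) in LT against 81.5 ± 7.98 (SD, n = 3) in ST (log2 difference 1.39, limma adjusted p = 0.0438), and CDH5 had 7.42 ± 0.636 (SD, n = 3) in LT against 17.5 ± 2.85 (SD, n = 3) in ST (1.22, limma adjusted p = 0.0408). All 6 summed to 81.6, 57.3 and 67.5 in LT against 186, 125 and 153 in ST, with no overlap. The 4 smooth muscle markers summed to 125, 116 and 97.2 in LT against 167, 135 and 173 in ST, also with no overlap, with TAGLN the most abundant. In bulk muscle, more cells of a type and more RNA per cell cannot be told apart, and the part of these cells in the JAG1 and Notch values was not tested.

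The libraries had the markers of the labelled tissue. The 6 skeletal muscle fibre markers found of 8 summed to 19616, 19952 and 15217 in LT against 10576, 14463 and 9563 in ST. These markers did not share a direction, and the amount of muscle fibre is not read from the sum. CKM and TNNT1 had higher means in ST and the others in LT. ACTA1 had 2429 ± 607 (SD, n = 3) in LT against 2361 ± 568 (SD, n = 3) in ST. CKM had 2068 ± 413 (SD, n = 3) in LT against 2561 ± 167 (SD, n = 3) in ST, and both overlapped. The most abundant, TNNC2 of fast fibres, had an FPKM of 9073, 9187 and 6549 in LT against 1585, 6139 and 383 in ST (limma adjusted p = 0.198). TNNT1 of slow fibres had 348, 207 and 246 in LT against 1746, 382 and 2079 in ST (limma adjusted p = 0.128). ST library 2 thus stood apart from the other two ST libraries and nearer to LT in both, and it is the library without which 991 genes were called in place of 113. Mitochondrial transcripts took 5.90%, 5.36% and 8.16% of all FPKM in LT against 14.3%, 12.1% and 15.4% in ST. The adipocyte, fibroblast, leukocyte and Schwann cell sums overlapped between the muscles. All 4 leukocyte markers still had higher means in ST, 2 with an unadjusted p under 0.05 (18.8% of all genes). These were PTPRC and CD3E, neither with overlap (limma adjusted p = 0.195 and 0.219). All 5 adipocyte markers had higher means in LT, 1 with an unadjusted p under 0.05. The part of fibre type in the transcripts of DCTN2, CCNT1 and JAG1 was not tested.

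**Figure D5:**
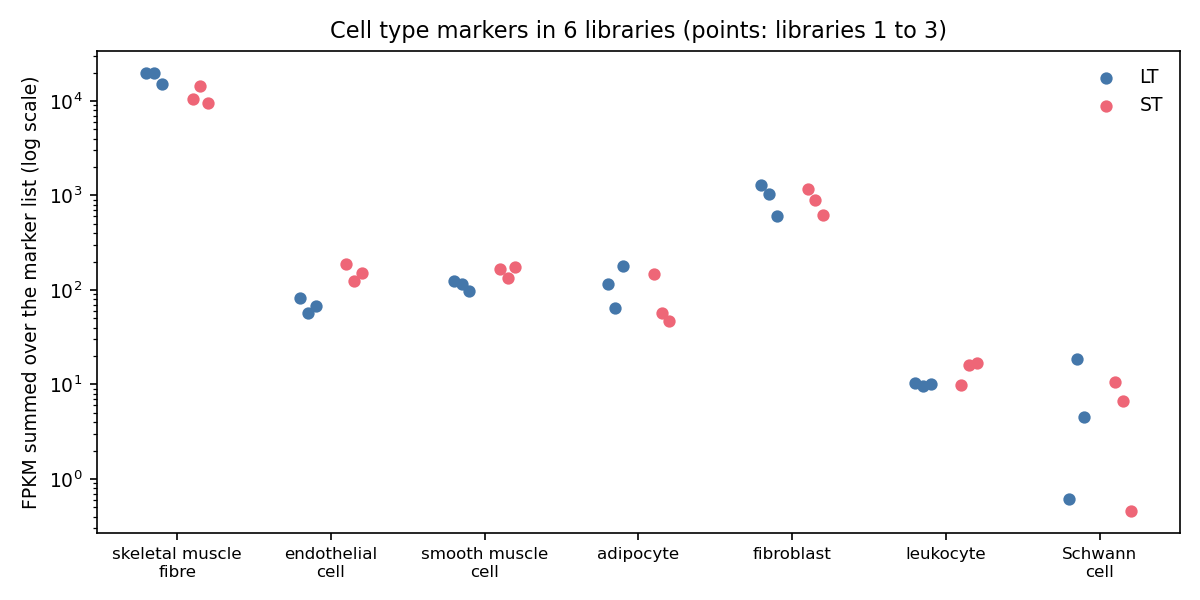
Points give the summed FPKM of each cell type marker list (y axis, log scale) in libraries 1 to 3 of LT and ST. The skeletal fibre points are higher in LT (15217 to 19952) than in ST (9563 to 14463), although CKM and TNNT1 of that list had higher means in ST. The endothelial points are higher in ST (125 to 186) than in LT (57.3 to 81.6), and those of adipocyte, fibroblast, leukocyte and Schwann cell markers overlap.

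At the level of transcripts the partner genes gave no call either. Limma called none of 102 dynactin and dynein, 49 elongation and 75 Notch transcripts, of which 14, 3 and 16 had an unadjusted p under 0.05. Of all mRNA transcripts, 0.192% were called and 10.8% had such a p. Of 25, 15 and 21 genes of the lists with several transcripts, none met the strict definition of a switch (0.534% of all genes) and 1 the wider one (1.57% of all genes). This was CAPZB, another capping protein subunit of dynactin, and nothing is read from 1 gene at a share near that of all genes. Its ENSSSCT00000039951 had 8.76, 6.34 and 10.1 in LT against 0.0390, 0.00500 and 1.14 in ST. It was thus the main CAPZB transcript in LT and had its 3 lowest values in ST. In ST, ENSSSCT00000060352 was the highest in library 1 (5.23), ENSSSCT00000049440 in library 2 (17.2) and ENSSSCT00000073462 in library 3 (3.81). The highest transcript thus differed between the ST libraries, but ENSSSCT00000060352 was present in all of them (5.23, 2.40 and 3.66).

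Transcripts on the opposite strand overlap CCNT1 and JAG1 but not DCTN2. An unannotated mRNA model on the plus strand, from 14772890 to 14806985 of chromosome 5, had an FPKM of 0.411, 0.324 and 0.369 in LT against 0.419, 0.327 and 0.306 in ST (log2 difference -0.06, limma adjusted p = 0.958). Over JAG1, an unannotated plus-strand mRNA model of 26 exons, from 19591957 to 19629651 of chromosome 17, had 0.600, 0.365 and 0.482 in LT against 1.28, 0.699 and 0.766 in ST. The muscles did not overlap, but the difference did not pass (0.78, SE 0.35, limma adjusted p = 0.539). Its level was 6.14% to 15.5% of the JAG1 sum. Whether strand was used when fragments were assigned is not given in the sources used here, and if it was not, reads of these models and of the genes cannot be told apart.

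LncRNAs within 100000 bp of the 3 genes were at low levels in both muscles. Of 19 listed, 14 lay near DCTN2, 1 near CCNT1 and 4 near JAG1, and the highest FPKM of any was 0.681. None of 16 tested was called by limma and none had an unadjusted p under 0.05, against 6.56% of all lncRNAs. With the pig as a block, and likewise without ST library 2, 2 had an unadjusted p under 0.05 with a log2 difference beyond 1, and none was called. The smallest p near DCTN2 was that of LNC_008315, with 0.136, 0.0800 and 0.128 in LT against 0.562, 0.136 and 0.596 in ST (log2 difference 1.16, SE 0.52, limma adjusted p = 0.532). Near JAG1 it was that of LNC_004838, an intronic lncRNA within the gene (0.40, limma adjusted p = 0.815). The lncRNA near CCNT1 did not reach an FPKM of 0.1 in any library.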

How the data were processed

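The FPKM values were deposited by the authors, 1 per transcript and library. They come from reads filtered by SOAPnuke, HISAT2 mapping to Sus scrofa 11.1 and reference-based assembly by StringTie. Depth per transcript was not given. FPKM was summed over the mRNA transcripts of each gene. Those exceeding an FPKM of 0.1 in any library entered limma (version 3.58.1, R 4.3.3), with log2(FPKM + 0.1) as response, a variance trend and Benjamini-Hochberg adjustment. The procedure was tested on simulated data. Tables and plots were made with Python 3.11.15, numpy 2.4.6, pandas 2.3.3 and matplotlib 3.10.9.

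The members and lists were chosen with earlier results of these data known. The lead transcript of a gene had the largest absolute log2 difference. Of each list the 5 genes with the smallest p were named where none was called, with other genes named for their role. The lncRNA with the smallest p was named for each window, and the 3 annotated transcripts most alike for each lead. CAPZB, CAPZA1, MFNG, APH1B and PSENEN were named after their values were seen. Symbols were given for 14657 of 20288 annotated genes, and DYNLRB1 and NINL were matched by position to RefSeq. DYNC1H1, BICDL1, HOOK1, LARP7, NELFB, JAG2, DLL3, DLK2, NOTCH1, NRARP, TTN, MYH7, VWF and EGFL7 were unmatched or below the FPKM minimum and are not analysed here.

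The pig as a block was an alternative to the unblocked fit. That the number in a sample title marks the pig is inferred from the study's sampling of both muscles from each animal. Deviations from the muscle means correlated weakly between same-numbered LT and ST libraries (r = 0.0834, 0.0723 and 0.0914 across transcripts), against -0.0316 to -0.0512 for other pairs. Deviations within a muscle cancel out, so the negative values follow largely from the positive ones and are not separate support. Other alternatives were pseudocounts, filters, quantile normalization, rescaling to nuclear transcripts, no variance trend and leaving out each library. Further ones, weighting sums by length and the wider definition of a switch, were added after seeing the data.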

Additional observations from a re-analysis of the deposited data

How the results depend on the processing

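With 3 pigs, counts of calls were unstable. Genes called numbered 113, and 30 with no filter, 61 after quantile normalization, 315 after rescaling to nuclear transcripts, 29 without a variance trend, 799 with the replicate block (paired by pig) and 12 to 991 with 1 library left out, the highest without ST library 2. The share of calls higher in ST was 71.7%, 52.5% after quantile normalization and 84.4% after rescaling to nuclear transcripts, and the median log2 difference of all genes was 0.13, -0.01 and 0.22. The mRNA transcripts called numbered 74, and 36 with pseudocount 1, 29 with no filter, 32 with FPKM above 1 in at least 3 libraries, 2 with the replicate block and 42 to 244 with 1 library left out. Dynactin and dynein genes called numbered 1 with the replicate block and 0 to 2 with 1 library left out, elongation genes 0 to 1, and Notch genes 2 with the replicate block, 1 after rescaling and 0 to 5, each highest without ST library 2. The replicate block changed no call among the elongation genes or the lncRNAs near the 3 genes, and was not run separately for markers, single transcripts of the lists or all lncRNAs. All 208 alternative values of the 15 partner genes with the smallest p (5 per list) kept their direction. Little is read from this, since the genes were chosen by p from the same libraries. The block, the filters and the variance trend also leave a log2 difference unchanged. The other partner genes named were not followed through the alternatives. Switches numbered 38, and 16 with summed FPKM above 5, 60 above 0.1, 16 with both shares moving by at least 0.5, 112 with the wider definition and 85 to 111 with 1 library left out, where fewer libraries had to share a highest transcript. ENSSSCT00000068109 of DCTN2 had log2 -11.2 with pseudocount 0.01 and -5.45 with pseudocount 1. The DCTN2 sum had log2 0.02, -0.039 after quantile normalization, -0.14 by FPKM times length and -0.13 to 0.11 with 1 library left out (-0.01 without ST library 1 and -0.0042 without ST library 2). By FPKM times length, ENSSSCT00000060508 made up 86.7% of CCNT1 in ST and the CCNT1 sum had log2 1.65. Requiring FPKM above 1 in at least 3 libraries left no lncRNA near the genes. The causes of these changes were not tested.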
